A study of Homo sapiens with 18 samples.

Results

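Epithelial-mesenchymal transition (EMT) and cadherin switch genes were examined in PCGF6-KO human pluripotent stem cells (PSCs). The 10 genes are CDH1, CDH2, CDH11, EPCAM, VIM, SNAI1, SNAI2, TWIST1, ZEB1 and ZEB2, taken by symbol from the 57133 genes of the deposited count table, and all 10 passed the filter on low counts. RNA-seq libraries came from wild-type (WT) PGP1, an established induced PSC line of human origin, and from 2 PCGF6-KO clones derived with a pair of gRNAs aimed at the first exon of PCGF6. WT, clone 1 and clone 2 had 2 libraries each, and all 3 were kept as undifferentiated cultures on Matrigel in mTesR1. Each clone was grown from a single sorted cell, both carried a homozygous deletion, and the labels do not say whether the libraries of 1 clone came from separate cultures, so p-values measure the spread between these libraries only.

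EMT is the process in which cells held together as an epithelial sheet loosen their contacts, gain mesenchymal matrix and cytoskeleton, and become motile. Transcription factors of the SNAI, TWIST and ZEB families bind E-box sequences and are known for repressing CDH1 during gastrulation, when epiblast cells pass through the primitive streak. The replacement of CDH1 (E-cadherin) by CDH2 (N-cadherin) at the cell surface is called the cadherin switch. PSCs in culture are epithelial cells with high CDH1 and EPCAM, and PCGF6 is a subunit of a Polycomb repressive complex, PRC1.6.

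The libraries held between 15877396 and 18918609 counts. PCGF6 itself had 16.5 and 18.0 CPM (counts scaled to library size by TMM) in the WT libraries, 5.18 and 5.67 in those of clone 1, and 10.3 and 9.91 in those of clone 2. It was called lower in both clones, and clone 1 lay below clone 2. Reads from outside the deleted part of the first exon add to this count, so it checks the genotype only in part. Of the pluripotency marker list, 0 of 10 genes were called higher and 2 lower, SOX2 and DNMT3B, with all 4 PCGF6-KO libraries against WT. The same comparison called 14.9% of all genes tested higher and 8.7% lower. DNMT3B was called lower in both clones and SOX2 in clone 2 alone (−1.04, against −0.41 in clone 1), and clone 2 was called lower than clone 1 for SOX2. The list summed to between 10311 and 10773 CPM in WT and between 7477 and 8116 CPM in PCGF6-KO. A large part of this fall was DNMT3B, with 2955 and 3085 CPM in WT and between 1149 and 1605 in PCGF6-KO. POU5F1, which was not called, had a mean of 1495 ± 4.78 CPM (SD, n = 2) in WT and between 1416 and 1625 CPM in the 4 PCGF6-KO libraries. Markers of the primitive streak summed to between 7.25 and 7.37 CPM in WT and between 622 and 756 CPM in PCGF6-KO. RNA from a share of differentiated cells and a change in every cell cannot be told apart in these bulk libraries.

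The 8 mesenchymal genes and EMT transcription factors among the 10 were higher in PCGF6-KO, whereas the 2 epithelial genes were not called in either direction. The threshold for a call was an adjusted p of 0.05 (edgeR) together with a log2 fold change of 0.6 in either direction. With the 4 PCGF6-KO libraries set against the 2 of WT, 8 of 10 were called higher and 0 lower, where 14.9% of all 17672 genes tested were called higher and 8.7% lower. The same 8 genes were called higher in clone 1 (16.0% of all genes tested higher, 8.8% lower) and in clone 2 (16.9% higher, 12.5% lower). Their 4 PCGF6-KO libraries all lay above both WT libraries, which held for 29.5% of all genes tested. The median log2 fold change was 3.01 over the 10 genes and 0.00 over all genes tested. Both comparisons of a clone with WT use the same 2 WT libraries. TWIST1 (0 counts in both WT libraries) and ZEB2 (3 and 8) passed the filter only through PCGF6-KO libraries, which favoured a call higher. With at least 10 counts in every library these genes were not tested, and 6 genes were called higher. The 10 genes were chosen with earlier results of these data known, so their share beside that of all genes is a description only.

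**Figure D1:**
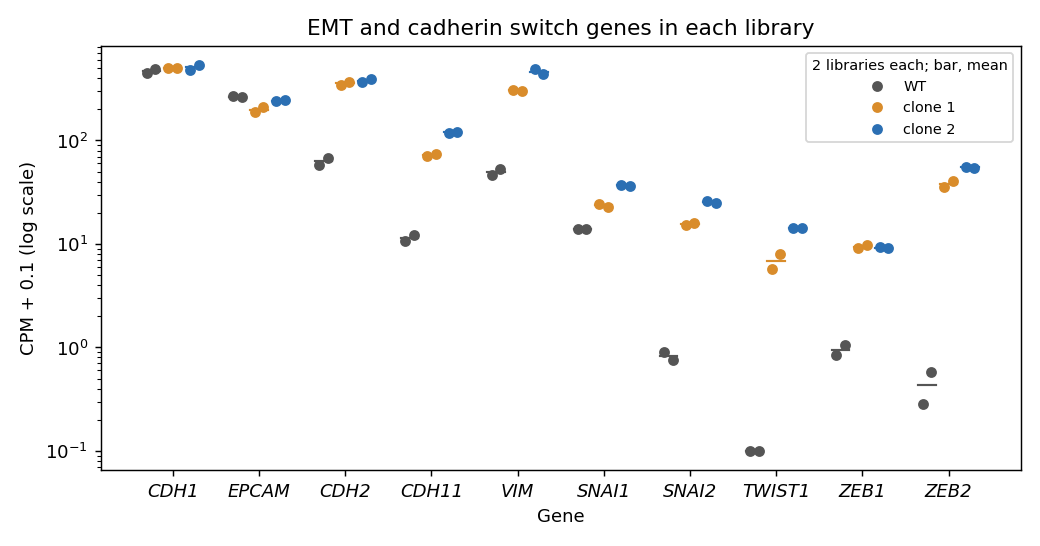
The CPM of each gene in each library, with 0.1 added for the log axis. Points are libraries, 2 for each of WT, clone 1 and clone 2, and bars are means. The WT points of TWIST1 stand for 0 counts, and of those of CDH1 the higher (488 CPM) lies among the PCGF6-KO points and the lower (449 CPM) below them.

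CDH1, the cadherin of epithelial adherens junctions, was not called in either clone or in the pooled comparison. The gene lies on chromosome 16 from 68737292 to 68835537 (GRCh38, + strand). CDH1 had 449 and 488 CPM in the WT libraries, 505 and 501 in those of clone 1, and 485 and 534 in those of clone 2, so that 1 WT library lay among the PCGF6-KO values and the other below them. In PCGF6-KO the log2 fold change was 0.11 (SE 0.06, 95% interval −0.03 to 0.26, adjusted p = 0.202, edgeR). This interval leaves out the decrease of 0.6 that a call needs.

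EPCAM, an adhesion molecule of epithelial and pluripotent cells, had lower values in PCGF6-KO and was not called. It is encoded on chromosome 2 from 47345158 to 47387601 (+ strand). The 2 WT libraries had 266 and 260 CPM, against 189 and 209 in clone 1 and 240 and 245 in clone 2. All 4 PCGF6-KO libraries were below both WT libraries, which was also the case for 27.6% of all genes tested. The pooled log2 fold change was −0.25 (SE 0.10, adjusted p = 0.0823, edgeR), which is not a call. In clone 1 it was −0.40 (SE 0.06) with an adjusted p of 3.5e-06 (edgeR), past the p but under the fold threshold, and in clone 2 it was −0.12 (95% interval −0.24 to 0.01, adjusted p = 0.106, edgeR).

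CDH2, the N-cadherin of mesenchymal and neural cells, rose in both clones, which were not called different from each other. It lies on chromosome 18 from 27932879 to 28177946 (− strand). WT had 58.2 and 67.2 CPM, clone 1 had 346 and 369, and clone 2 had 364 and 389. CDH2 was 5.86-fold higher (log2 fold change 2.55, SE 0.09, adjusted p = 2.0e-07, edgeR). The clones differed by 0.07 on the log2 scale (95% interval −0.05 to 0.20, adjusted p = 0.459, edgeR).

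CDH11, a cadherin of mesenchymal and bone-forming cells, lies on chromosome 16 from 64943753 to 65126112 (− strand). It had 10.6 and 12.2 CPM in the WT libraries, 71.0 and 73.6 in those of clone 1, and 118 and 121 in those of clone 2. Both clones were above WT without overlap, and clone 2 was above clone 1. The pooled log2 fold change was 3.07 (SE 0.28, adjusted p = 4.4e-05, edgeR).

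VIM encodes vimentin, the intermediate filament of mesenchymal cells, on chromosome 10 from 17228241 to 17237593 (+ strand). Its level was 46.1 and 52.7 CPM in the WT libraries, 306 and 304 in those of clone 1, and 487 and 440 in those of clone 2. The pooled comparison gave 2.96 on the log2 scale (SE 0.23, adjusted p = 1.5e-05, edgeR), with clone 2 again above clone 1. VIM-AS1 and another annotated gene overlap 24.6% of the exon bases of VIM, and the strand setting of the counting is not given in the sources used here. VIM-AS1 had between 1 and 11 counts in any library, too few to be tested, against 750 to 8827 counts of VIM.

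Since VIM and CDH2 rose together, the 250 bases before a start of each are shown with CpG dinucleotides in capitals (RefSeq, GRCh38.p14). The VIM bases lie at chr10:17227991-17228240 (+ strand) and the CDH2 bases at chr18:28177131-28177380 (− strand).
VIM: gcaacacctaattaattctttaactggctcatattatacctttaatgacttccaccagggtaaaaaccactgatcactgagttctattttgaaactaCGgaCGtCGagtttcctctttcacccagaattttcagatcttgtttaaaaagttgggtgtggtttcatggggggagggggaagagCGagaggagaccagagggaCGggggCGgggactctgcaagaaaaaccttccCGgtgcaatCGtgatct
CDH2: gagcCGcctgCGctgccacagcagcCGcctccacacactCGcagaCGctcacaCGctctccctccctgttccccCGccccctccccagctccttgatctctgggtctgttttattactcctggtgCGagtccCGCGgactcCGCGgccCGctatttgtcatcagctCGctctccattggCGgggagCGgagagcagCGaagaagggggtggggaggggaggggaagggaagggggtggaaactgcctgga
The VIM bases held 8 CpG and 46.0% GC, and the CDH2 bases 17 CpG and 66.0% GC, where the medians over 35116 promoter windows were 11 CpG and 58% GC. CDH2 has another RefSeq start, and the 250 bases before that one (chr18:28036642-28036891) held 4 CpG and 42.0% GC, below both medians. CACGTG, the E-box of MAX, was in 0 of 11 windows of the 4 genes with a RefSeq window (CDH2, VIM, ZEB1 and ZEB2) and in 7.26% of all windows of 300 bases, counting both strands. GCGGGAA, the E2F6 motif, was likewise in 0 of 11 and in 6.55% of all windows. Most of the 11 windows are of ZEB1, at starts near each other. These counts say only that the letters are not in these windows.

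The transcription factors ranged from a moderate rise of SNAI1 to a gain of TWIST1 from 0 counts. SNAI1 (Snail), on chromosome 20 from 49982980 to 49988886 (+ strand), was the only one of the 5 with more than 1 CPM in WT. It had 13.8 and 13.9 CPM in the WT libraries, 24.5 and 22.9 in those of clone 1, and 37.1 and 36.4 in those of clone 2. Its log2 fold change of 1.12 (SE 0.22, adjusted p = 0.0036, edgeR) was the smallest among the 8 genes called.

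SNAI2 (Slug), a factor of neural crest and mesoderm on chromosome 8 from 48917598 to 48921740 (− strand), had 13 and 11 counts in WT. These counts were 0.798 and 0.659 CPM, against 15.0 and 15.7 CPM in clone 1 and 25.6 and 24.7 in clone 2. The fitted log2 fold change was 4.78 (SE 0.37, adjusted p = 1.5e-05, edgeR). The summed counts gave a ratio of 27.6 with an exact 95% counting interval of 18.5 to 43.2.

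TWIST1, a helix-loop-helix factor of mesoderm and cranial mesenchyme, lies on chromosome 7 from 19020991 to 19117636 (− strand). It had 0 counts in both WT libraries, 108 and 143 in clone 1, and 255 and 228 in clone 2. Set against 3 counts in each WT library, the rise was at least 57.4-fold, at least 37.1-fold in clone 1 and at least 77.7-fold in clone 2 (adjusted p = 0.000202 for the pooled comparison, edgeR). Counting intervals and bounds cover counting error only.

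ZEB1, a zinc-finger homeobox repressor on chromosome 10 from 31318495 to 31529814 (+ strand), rose in both clones. It had 12 and 16 counts in WT (0.737 and 0.959 CPM), 9.00 and 9.68 CPM in clone 1, and 9.16 and 9.10 CPM in clone 2. The log2 fold change was 3.43 (SE 0.20, adjusted p = 3.3e-06, edgeR), and the clones differed by −0.03 (95% interval −0.33 to 0.27). ZEB1-AS1, which shares exon bases with ZEB1 on the opposite strand, had 16 and 18 counts in WT and between 13 and 21 in PCGF6-KO, and was not called (adjusted p = 0.791, edgeR).

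The 250 bases before the first RefSeq start of ZEB1 are shown because ZEB1 itself belongs to the E-box binding factors, with the SNAI and ZEB E-box CAGGTG in capitals (chr10:31318167-31318416, + strand, GRCh38.p14). Exons of ZEB1-AS1 lie in these bases.
ZEB1: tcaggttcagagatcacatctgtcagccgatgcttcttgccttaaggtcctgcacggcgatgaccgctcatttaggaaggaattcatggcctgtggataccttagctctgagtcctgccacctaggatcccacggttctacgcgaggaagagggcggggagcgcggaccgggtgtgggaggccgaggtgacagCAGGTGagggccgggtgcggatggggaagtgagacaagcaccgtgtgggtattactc
The motif starts 57 bases before the start. CAGGTG on either strand was in 20.6% of all windows and in 2 of 11 windows of the 4 genes. Both were of ZEB1, to which most of the 11 windows belong.

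ZEB2, the second ZEB repressor, lies on chromosome 2 from 144364364 to 144521057 (− strand). It had 3 and 8 counts in the WT libraries, 672 and 734 in those of clone 1, and 1005 and 869 in those of clone 2, which were 35.1 to 55.4 CPM. The log2 fold change of 7.08 (SE 0.38, adjusted p = 1.9e-06, edgeR) corresponds to a ratio of summed counts of 138 with an exact 95% counting interval of 76.8 to 276. The overlapping ZEB2-AS1 had at most 3 counts in a library and was not tested.

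**Figure D2:**
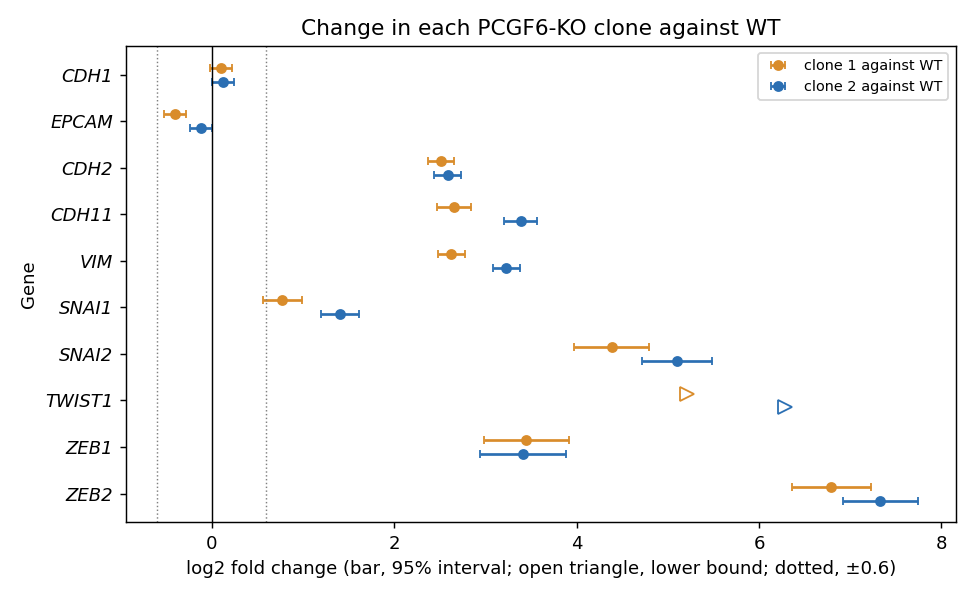
The log2 fold change of each gene in clone 1 and clone 2 against the same 2 WT libraries, with 95% intervals (edgeR). Open triangles are lower bounds for TWIST1, and dotted lines mark the threshold of 0.6 in either direction. CDH1 and EPCAM lie inside these lines in both clones, and CDH2 and ZEB1 have overlapping intervals in the clones.

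To ask whether the rise was of one size in both clones, clone 2 was compared with clone 1 in a fit of 3 groups. Of the 10 genes, 5 were called higher and 0 lower in clone 2, where 3.73% of all genes tested were called higher and 4.14% lower. Both libraries of clone 2 were above both of clone 1 for these 5, as for 28.9% of all genes tested. They were TWIST1 (log2 difference 1.07, SE 0.16), CDH11 (0.72, SE 0.07), SNAI2 (0.71, SE 0.11), SNAI1 (0.63, SE 0.09) and VIM (0.60, SE 0.06), with adjusted p between 2.8e-08 and 2.2e-05 (edgeR). ZEB2 was 0.54 higher (SE 0.09, adjusted p = 0.00013, edgeR) and EPCAM 0.29 higher (SE 0.06, adjusted p = 0.00103, edgeR), both under the fold threshold. CDH1, CDH2 and ZEB1 were not called, with log2 differences of 0.02, 0.07 and −0.03. The call of VIM lies at the threshold: its log2 difference was 0.59 without the second WT library, 0.59 without the second library of clone 1 and 0.53 without the first of clone 2. SNAI1 was at 0.58 without the second library of clone 1, where ZEB2 reached 0.64 and was called. PCGF6 itself was 0.90 higher in clone 2 than in clone 1 on the log2 scale (SE 0.15), and its part in these differences was not tested.

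Levels of different genes were compared as TPM, which divide the counts by gene length before scaling each library to the same total. In WT, EPCAM (465 TPM) and CDH1 (337) stood far above CDH2 (56.3), VIM (42.6) and SNAI1 (36.6), followed by CDH11 (3.80), SNAI2 (0.956), ZEB1 (0.436), ZEB2 (0.0590) and TWIST1 (0). No neighbours in this order overlapped in WT. In clone 1, CDH1 (356 TPM), EPCAM (346) and CDH2 (316) overlapped with their neighbours, and VIM followed at 258 TPM. In clone 2, EPCAM was at 396 TPM, and VIM (369), CDH1 (339) and CDH2 (313) overlapped with their neighbours. The factors were in the order SNAI1, SNAI2, TWIST1, ZEB2 and ZEB1 in both clones, with ZEB1 last in place of TWIST1, from 61.4 and 89.6 TPM for SNAI1 down to 4.72 and 4.34 TPM for ZEB1. By CPM, which ignore length, ZEB2 was the highest of these factors, with means of 37.8 in clone 1 and 54.8 in clone 2. SNAI1 came next, at 23.7 and 36.7. The deposited length of ZEB2 is 25058 bases, and its place by TPM rests on that length. The place of CDH2 depends on its length, which is 4950 bases in the deposited table and 8583 in GENCODE release 44. With the longer length CDH2 was at 32.5 TPM in WT, below VIM and SNAI1, and at 182 and 180 TPM in the clones.

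**Figure D3:**
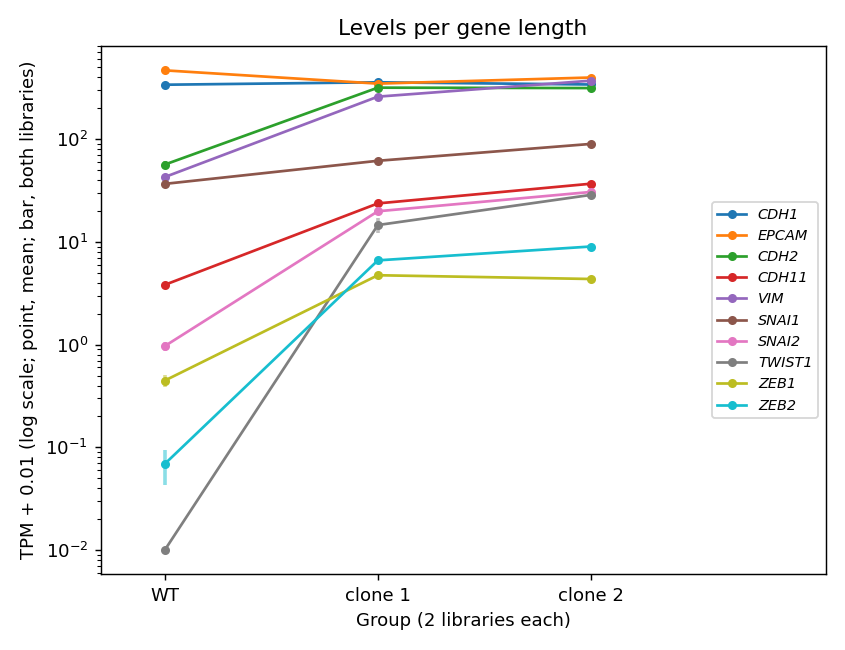
Mean TPM of each gene in WT, clone 1 and clone 2, with 0.01 added for the log axis. Vertical bars span both libraries of a group, and lines join the means of one gene. With the deposited lengths CDH2 and VIM join CDH1 and EPCAM above 250 TPM in both clones (CDH2 is at 182 and 180 TPM with the longer length), and the factors stay below 100 TPM.

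The ratio within each library, which does not depend on library scaling, was computed for the cadherins and for VIM and EPCAM. CDH2 to CDH1 was 0.162 and 0.172 in the WT libraries, 0.854 and 0.919 in those of clone 1, and 0.939 and 0.909 in those of clone 2, as TPM with the deposited lengths. With the GENCODE lengths the same ratio was 0.0918 and 0.0975 in WT and between 0.484 and 0.533 in PCGF6-KO, so how near CDH2 came to CDH1 depends on the length used. The log2 ratio was 2.44 higher in PCGF6-KO than in WT, or 5.42-fold, a difference in which gene length cancels. VIM to EPCAM was 0.0845 and 0.0988 in the WT libraries, 0.789 and 0.710 in those of clone 1, and 0.990 and 0.875 in those of clone 2, a difference of 3.19 on the log2 scale. Both ratios were higher in 4 of 4 PCGF6-KO libraries than in either WT library. The exact two-sided permutation test gave p = 0.133 for both ratios, the smallest that 2 against 4 libraries allow. In the first ratio, CDH2 had the log2 fold change of 2.55 and CDH1 that of 0.11. CDH11 to CDH1 moved from 0.0109 and 0.0116 in WT to between 0.0649 and 0.112 in PCGF6-KO.

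**Figure D4:**
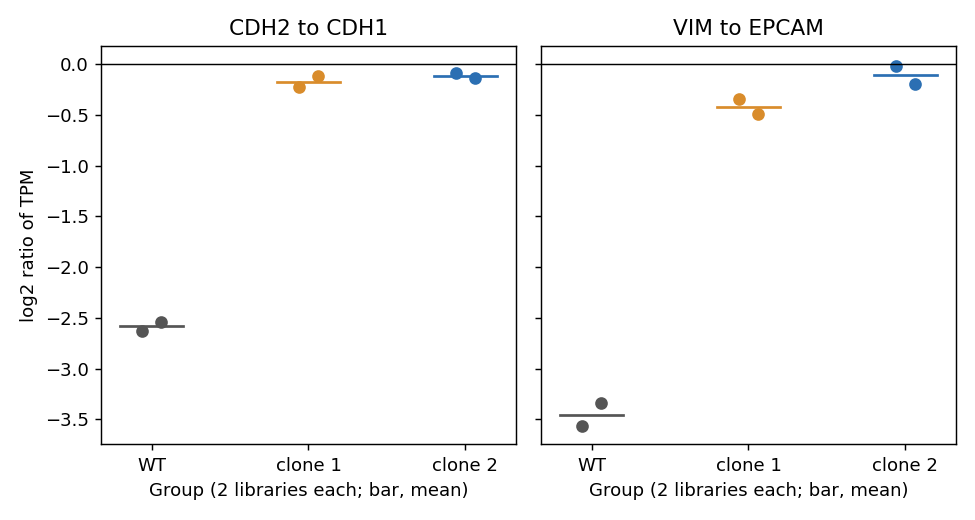
The log2 ratio of TPM in each library for CDH2 to CDH1 (left) and VIM to EPCAM (right). Points are libraries, bars are group means, and the line at 0 marks equal TPM with the deposited gene lengths. WT lies near −2.58 and −3.45, and the 4 PCGF6-KO libraries lie between −0.49 and −0.02. With GENCODE lengths the PCGF6-KO values of CDH2 to CDH1 would lie between −1.05 and −0.91.

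The list of other EMT transcription factors was mixed, both in its calls and in its make-up. It also holds epithelial factors such as GRHL2 and ELF3, and the splicing regulators ESRP1 and ESRP2. Of 18 genes, 9 were called higher, 2 lower and 7 not, with a median log2 fold change of 0.57, beside the 14.9% higher and 8.7% lower of all genes tested. PRRX1, a mesenchymal homeobox gene, had 2 and 5 counts in WT and between 454 and 665 in PCGF6-KO. Its log2 fold change was 7.20 (SE 0.36, adjusted p = 1.4e-06, edgeR). The ratio of summed counts was 150, with a wider exact 95% counting interval of 72.9 to 375. SOX9, a factor of neural crest and cartilage, was 1.55 higher and TWIST2 1.14 higher on the log2 scale. SNAI3 went the other way from SNAI1 and SNAI2, from 110 and 68 counts in WT to between 17 and 26 in PCGF6-KO (log2 fold change −2.25, SE 0.26, adjusted p = 0.00021, edgeR). GRHL2, an activator of epithelial genes, was also lower (−0.80, SE 0.08, adjusted p = 0.000109, edgeR). ELF3, an epithelial factor in the same list, was among the 9 called higher, with 118 and 120 counts in WT and between 176 and 275 in PCGF6-KO (log2 fold change 0.77, SE 0.15, adjusted p = 0.0042, edgeR), and was named after its value was seen. The epithelial splicing regulators ESRP1 (−0.34) and ESRP2 (−0.09) were not called, and were chosen for naming after their values were seen.

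Of 15 other classical cadherins, 12 were tested, 4 were called higher and 1 lower, beside 14.9% and 8.7% of all genes tested, the latter near that share. In clone 1 the numbers were 5 and 1, beside 16.0% and 8.8% of all genes tested. In clone 2 they were 4 and 2, beside 16.9% and 12.5%. CDH6, a cadherin of kidney and neural crest, rose from 44 and 57 counts in WT to between 1006 and 1157 in PCGF6-KO (log2 fold change 4.26, SE 0.15, adjusted p = 2.5e-07, edgeR). CDH7 was 1.87 higher on the log2 scale. CDH10 (4.83), CDH20 (1.74) and CDH5, the endothelial cadherin (−1.43), completed the calls and were named after their values were seen. CDH10, with 1 and 3 counts in WT, passed the filter only through PCGF6-KO libraries. Among 7 catenins, which tie cadherins to actin and other partners, CTNNA2 was called lower (−2.44, SE 0.15) and CTNNA3 higher (1.07, SE 0.35), the latter in clone 1 and not in clone 2, which was called lower than clone 1. The other 5, beta-catenin (CTNNB1, named after its value was seen) included, were not called. With 1 of 7 in each direction, the catenins were near the share of all genes tested.

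Of 31 epithelial junction and polarity genes, 5 were called higher, 5 lower and 21 not, with a median log2 fold change of −0.12. The count called higher was near the 14.9% of all genes tested, and 8.7% of all genes were called lower. The tight junction gene CLDN3 had 124 and 120 counts in the WT libraries, 51 and 43 in those of clone 1, and 22 and 22 in those of clone 2 (log2 fold change −1.95, SE 0.30, adjusted p = 0.00096, edgeR). AP1M2 (−0.93) and MARVELD3 (−0.91) were lower too, as were RAB25 (−0.79) and CLDN4 (−0.69), which were named after their values were seen. The desmosome genes PKP3 (1.87), DSP (1.56) and PKP2 (1.29) were higher, and DSP rose from 223 and 229 CPM in WT to between 554 and 782 in PCGF6-KO. TJP3 (0.88) and DSC2 (0.63) completed the genes called higher and were also named after their values were seen.

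Mesenchymal matrix and cytoskeleton genes rose in most cases. Of 30 genes, 29 were tested, 26 were called higher and 1 lower (14.9% and 8.7% of all genes tested), with a median log2 fold change of 1.90 (1.89 with genes at 0 in WT at their bound). COL3A1, a fibrillar collagen, had 6 and 1 counts in WT and between 4601 and 7977 in PCGF6-KO. LUM, a matrix proteoglycan, had 0 counts in WT and between 427 and 621 in PCGF6-KO, at least 165-fold higher. ACTA2, smooth muscle actin, rose from 1 and 4 counts to between 385 and 893. THY1 was the gene called lower, from 620 and 605 CPM in WT to between 258 and 284 CPM (log2 fold change −1.18, SE 0.06). Among 9 TGF-beta and HGF ligand and receptor genes, which include known inducers of EMT, 4 ligands were called higher and 0 genes lower in the pooled comparison. These were TGFB2 (4.03), TGFB1 (2.55), HGF (1.89) and TGFB3 (1.43, named after its value was seen), whereas TGFBR1 (−0.06), TGFBR2 (−0.46) and MET (−0.26), also named after their values were seen, were not called. In clone 1 TGFBR2 was called lower (−0.72, SE 0.13, adjusted p = 3.6e-05, edgeR), and in clone 2 its log2 fold change was −0.24.

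Genes with the most similar pattern were sought among 13616 genes with a mean of at least 1 log2 CPM, as the smallest root mean square difference of centred log2 CPM (prior count 2) over the 6 libraries. CDH11 and VIM were each among the 3 nearest to the other (0.09). VIM was nearest to OLFML3 (0.03) and SHC2 (0.08), and CDH11 to PCSK1 (0.04) and CAV1 (0.08). CDH2 was nearest to NATD1, CDK6 and TSPAN18 (0.06 to 0.08), and ZEB2 to PRRX1, CDKN2B and AL161431.1 (0.11 to 0.16). The nearest genes to TWIST1 were HOXB8, HAND2 and HOXA9 (0.10 to 0.16), those to SNAI2 were ALPK2, PMP22 and FAM20A (0.11 to 0.12), and those to ZEB1 were ID2, GMPR and JPH2 (0.10 to 0.15). SNAI1 lay nearest to TXNRD2, LGALS3 and S100A11 (0.04 to 0.05). CDH1 and EPCAM, which were not called, were nearest to VPS54, PQLC2 and YIPF2, and to LFNG, CNNM3 and FAM57A (0.02 to 0.04).

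Markers of other cell types were measured in the same libraries. In the pooled comparison used here, 14.9% of all genes tested were called higher and 8.7% lower. A single call among the few tested genes of a list cannot be told from these shares. Of 8 primitive streak genes, 6 were tested and all 6 called higher, with MIXL1 the highest in PCGF6-KO at between 289 and 342 CPM against a mean of 3.53 ± 1.09 CPM (SD, n = 2) in WT. MESP1 and MESP2 stayed under 1 CPM in every PCGF6-KO library. TBXT (0 and 12 counts in WT), EOMES (3 and 5) and GSC (1 and 1) passed the filter only through PCGF6-KO libraries, which favoured a call higher. GSC is in both the streak list and the list of EMT factors. Of 10 genes of lateral and cardiac mesoderm, 9 were called higher, and their summed level went from between 150 and 151 CPM in WT to between 556 and 591 in clone 1 and between 681 and 690 in clone 2. KDR was the highest of them, at between 454 and 495 CPM in PCGF6-KO, and HAND1, HAND2, FOXF1 and TBX20 were at 0 in WT. In this list every gene but KDR had at most 8 counts in a WT library and passed the filter only through PCGF6-KO libraries. The summed level of 8 neural crest markers was between 226 and 227 CPM in WT and between 193 and 237 in PCGF6-KO, although 5 were called higher and 1 lower. ERBB3 was the highest of these, with a mean of 123 ± 1.79 CPM (SD, n = 2) in WT and between 84.7 and 94.1 CPM in PCGF6-KO. PAX3, PAX7 and TFAP2B, with at most 2 counts in a WT library, passed the filter only through PCGF6-KO libraries. Amnion and surface ectoderm markers summed to between 9.89 and 11.6 CPM in WT and between 24.4 and 25.3 in PCGF6-KO, with 1 of 3 tested genes, TFAP2A, called higher and KRT14 at 0 in every library. TFAP2A, with 6 and 5 counts in WT, also passed the filter only through PCGF6-KO libraries. Endothelial and blood markers summed to between 50.7 and 53.1 CPM in WT and between 55.6 and 59.3 in PCGF6-KO. Of 4 tested, 0 were called higher and 1, TIE1, lower, with PTPRC and TIE1 under 1 CPM in every PCGF6-KO library. The part of these cell types in the changes of the EMT genes was not tested.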

How the data were processed

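RNA-seq counts of 6 libraries were used. Per the labels and the methods of the study, the authors trimmed adapters with Trim Galore (0.6.2), aligned reads to GRCh38 with HISAT2 (2.1.0) and obtained gene counts from featureCounts. The deposited values are raw counts, whole numbers for 57133 genes, beside a gene length in bases. The annotation release, strand setting and treatment of multi-mapped reads are not given in the sources used here. The other 12 samples, ChIP-seq, were not analysed here.

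Genes with low counts were removed with filterByExpr on the 2 genotypes, which left 17672 genes, all 10 members included. A gene near 0 in 1 genotype passed this filter only through the other, so a call toward that other genotype was favoured. This holds for the members and for every list. Libraries were scaled by TMM. PCGF6-KO (4 libraries) and WT (2 libraries) were compared by the quasi-likelihood test of edgeR 4.0.16 (R 4.3.3, limma 3.58.1), and a fit of 3 groups gave the clones. p-values were adjusted by Benjamini-Hochberg over all genes tested, and the thresholds (adjusted p 0.05, absolute log2 fold change 0.6) follow the study's methods. The 4 PCGF6-KO libraries come from 2 clones and are not 4 independent lines. CPM use TMM-scaled sizes. TPM were computed with the deposited lengths.

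The common biological coefficient of variation was 0.120, and replicate libraries differed by more than counting error (chi-square per degree of freedom 2.40 in WT, 4.50 in clone 1 and 3.20 in clone 2). Ratios were tested with an exact permutation test. Folds against genes with 0 WT counts are bounds against 3 counts per library, and genes with at most 30 WT counts have an exact (Clopper-Pearson) 95% counting interval. The labels share replicate numbers across groups, which were checked for pairing.

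The members and gene lists were chosen with earlier results of these data known. Named are the members, PCGF6, up to 3 genes called in each direction per list with the largest fold change and a mean of at least 1 log2 CPM, the antisense transcripts, the highest member of each marker list and those at or near 0, and the 3 genes of most similar pattern, leaving out 17 genes that are Y-linked or tied to X inactivation. Of 163 list genes, 160 matched by symbol and 1 by synonym. Positions are those of GENCODE release 44, and promoter sequences those of RefSeq. Alternatives were RLE and upper-quartile scaling, DESeq2 (1.42.0), the mean of the clones, other thresholds, no filter or a minimum of 10 counts per library, a prior count of 2, the replicate block, raw-count ratios and leaving out each library. Annotation lengths for the ratios were chosen after seeing the data. The scripts were tested on simulated data. Tables and figures were made in Python 3.11.15 (pandas 2.3.3, numpy 2.4.6, matplotlib 3.10.9, scipy 1.17.1).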

Additional observations from a re-analysis of the deposited data

Results flagged for a closer look

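The 2 PCGF6-KO clones differed in 5 of the 10 genes by the test of clone 2 against clone 1 itself, where 3.73% of all genes tested were called higher and 4.14% lower. The log2 difference was 0.72 for CDH11, 0.60 for VIM, 0.63 for SNAI1, 0.71 for SNAI2 and 1.07 for TWIST1, higher in clone 2 for all 5. VIM fell under the fold threshold in 5 of 15 alternatives. Both libraries of clone 2 were above both of clone 1 for each of the 5 genes, which held for 28.9% of all genes tested. The cause was not tested.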

How the results depend on the processing

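All 158 values of the 10 genes in PCGF6-KO against WT, and all 148 in clone 2 against WT, kept their direction and their side of the thresholds under the alternatives that tested them. With at least 10 counts in every library, TWIST1 and ZEB2 were not tested, and 6 genes were called higher in each of the 3 comparisons with WT. The 8 genes called higher numbered 8 in each of the 3 comparisons with WT when any 1 library was left out. With adjusted p alone, EPCAM was called lower in clone 1, so that 1 gene was lower there, and all calls numbered 6556 in PCGF6-KO, 8002 in clone 1, 8904 in clone 2 and 3441 between the clones, against 4167, 4379, 5197 and 1390. Between the clones, DESeq2 called 810 genes, and with at least 10 counts in every library 3 members were called higher in place of 5, since TWIST1 was then not tested and VIM was at 0.599. Leaving out 1 library gave between 4 and 5 members. VIM was also under the threshold with upper-quartile scaling (0.58). Directions reversed between the clones for CDH1, at −0.0094 with upper-quartile scaling and between −0.055 (without the second library of clone 2) and 0.084 when 1 library was left out, and for ZEB1, between −0.081 and 0.016 (without the second library of clone 1). None of these was a call. The median log2 fold change of all genes was 0.10 under DESeq2 and without a filter, and 0.00 for both over the 17672 genes of the filtered fit. Replicate differences correlated at 0.07, 0.08 and 0.19 between the groups, so the shared numbers were not taken as pairing, and the replicate block gave 3876, 4420, 5233 and 1484 calls in the 4 comparisons and changed no call among the 10 genes. The ratios differed by 2.40 to 2.48 for CDH2 to CDH1 and 3.08 to 3.30 for VIM to EPCAM when a library was left out, and these differences cannot change with annotation lengths, which cancel; the ratios themselves do. Depth limits TWIST1, ZEB1, ZEB2 and SNAI2, which had at most 16 counts in a WT library.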
